A study of Mus musculus with 7 samples.

Results

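The genes described here are 10 genes of steroid hormone synthesis and of steroid conversion inside tissues, taken by symbol from a table of 24964 genes measured by RNA sequencing in mouse uterus. All 10 symbols were found: Star, Cyp11a1, Hsd3b1, Cyp17a1, Cyp19a1, Hsd17b1, Hsd17b2, Hsd11b1, Hsd11b2 and Srd5a1. Whole uteri came from 12-week-old mice in diestrus, a phase of the estrous cycle. The 3 control libraries (numbered 1, 2 and 4) had the genotype Pgrcre/+, and the 4 compared libraries (numbered 1 to 4) had the genotype Pgrcre/+Foxl2LsL/+ and are called Foxl2LsL here. Both groups therefore carried the Pgr-Cre allele, which drives Cre recombinase from the progesterone receptor gene and so acts in cells that use that gene. The labels do not say whether a library came from 1 animal or from a pool, so p-values measure the spread between these libraries. The title of the study names overexpression of FOXL2, a forkhead transcription factor that in the ovary is active in granulosa cells.

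Steroid hormones are made from cholesterol in ovary, testis and adrenal gland. STAR brings cholesterol into mitochondria, CYP11A1 turns it into pregnenolone, HSD3B enzymes make progesterone, CYP17A1 makes androgens and CYP19A1, the aromatase, makes estrogens. The uterus is mainly a target of these hormones, and it adjusts them locally. HSD17B1 and HSD17B2 interconvert estrone and estradiol in opposite directions, HSD11B1 and HSD11B2 do the same for active and inactive glucocorticoids, and SRD5A1 reduces progesterone and testosterone.

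Values are FPKM, fragment counts scaled by gene length and by library size, as deposited. The library sizes behind them, recovered from the steps between low values, were 47800000 to 67300000 fragments. Foxl2 itself was at 11.1, 19.3 and 12.9 FPKM in controls 1, 2 and 4 and at 12.7, 14.3, 14.8 and 17.2 FPKM in Foxl2LsL libraries 1 to 4. The groups overlapped, and the log2 fold change was 0.06 (SE 0.18; Benjamini-Hochberg adjusted limma p 0.818), so this gene does not tell the labels apart. Its exons overlap Foxl2os on the opposite strand, and whether counting used strand is not given in the sources used here. Every direction below is that of the libraries as labelled. Markers of uterine epithelium, stroma, smooth muscle and endothelium were present in all 7 libraries. Summed FPKM of the epithelial markers was 528 to 1094 in controls and 864 to 1166 in Foxl2LsL libraries. At a Benjamini-Hochberg adjusted limma p under 0.05, 1 of these 5 markers, Krt18, was higher in Foxl2LsL libraries and 4 did not pass. Of 6 smooth muscle markers 2, Myh11 and Tagln, were higher and 4 did not pass, where 16.7% of all tested genes were higher. Stromal and endothelial markers are given below. A change in bulk tissue can reflect fewer cells of a type or less RNA per cell, which cannot be told apart here.

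Star was the 1 member that differed between the genotypes past the threshold, and it was 2.17-fold higher in Foxl2LsL libraries by mean FPKM. Of the 10 members, 6 had a mean of at least 1 FPKM over the 7 libraries and were tested. Star passed the threshold, a Benjamini-Hochberg adjusted limma p under 0.05, and 0 members were lower past it. Among all 13334 genes tested, 16.7% were higher past the threshold, 23.9% were lower and 40.6% were called in either direction. Among the tested members 1 of 6 was higher, the same share as among all genes, and the share called in either direction was below that of all genes. Star was likewise the 1 member of 10 whose groups did not overlap, where 47.6% of all tested genes had groups that did not. The median log2 fold change of the 6 members was 0.35, with 4 above and 2 below 0, against -0.05 over all genes tested.

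The members spanned a wide range of levels. By mean FPKM over the 7 libraries the order was Hsd11b2 (73.7 FPKM), Star (4.52), Srd5a1 (3.82), Hsd11b1 (2.85), Hsd3b1 (1.60), Hsd17b1 (1.03), Cyp11a1 (0.436), Hsd17b2 (0.408), Cyp17a1 (0.229) and Cyp19a1 (0.0123). Hsd11b2 stood above 97.5% of all listed genes, and Star above 60.6%. Neighbours in the middle of this order, such as Srd5a1 and Hsd11b1, overlapped between libraries. Hsd17b1, at 1.03 FPKM, lay just inside the limit for testing, and Cyp11a1, at 0.436 FPKM, was the nearest member outside it. Hsd3b1 passed through a few high libraries, since it was at 0 in others.

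**Figure D1:**
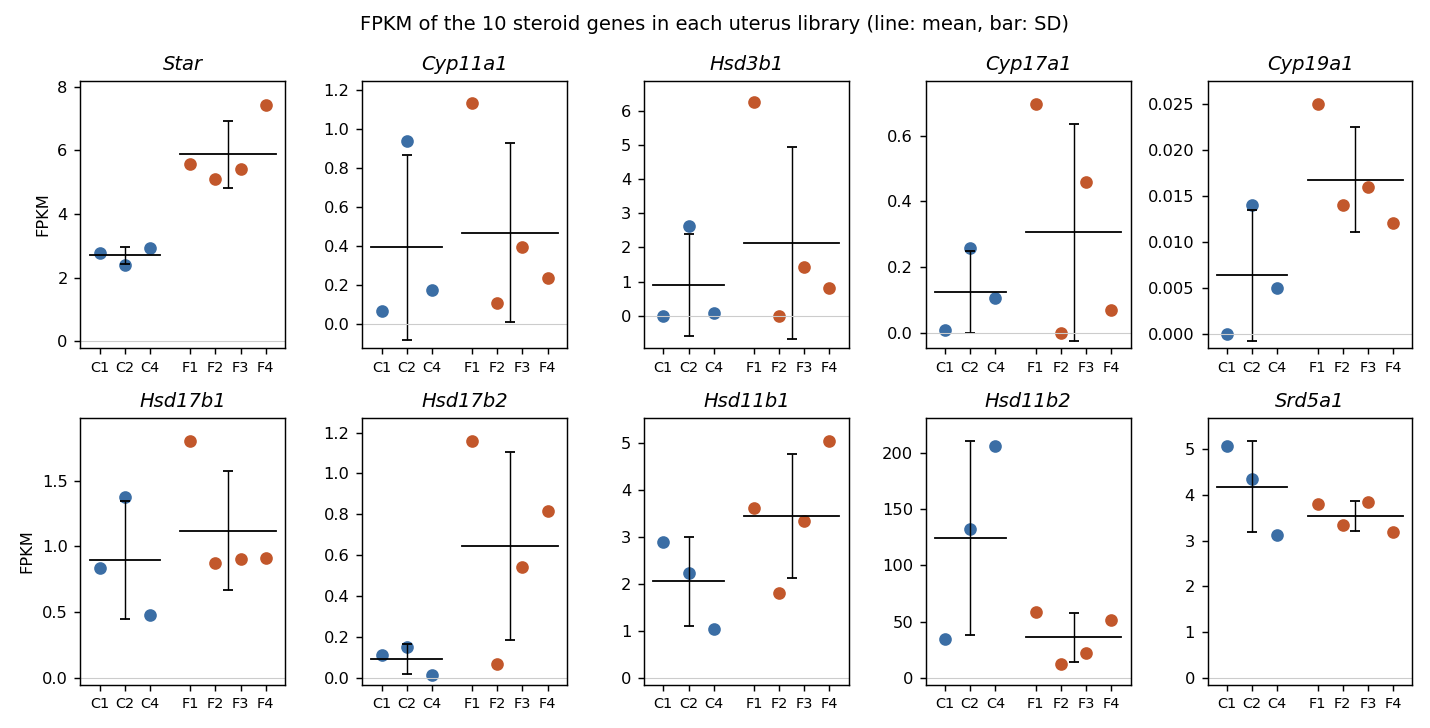
FPKM of each of the 10 genes (y axes, linear, own scale per gene) in each library (x axis: C1, C2 and C4 are controls, F1 to F4 are Foxl2LsL libraries), with the group mean as a line and the SD as a bar. Star is the gene whose groups separate, while Hsd3b1, Cyp11a1 and Cyp17a1 are highest in F1 and near 0 in C1 and F2.

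Reference sequence upstream of annotated starts is shown for 3 members: Cyp11a1 and Hsd3b1, because they were high in the same libraries, and Hsd11b1, because its window holds a forkhead motif and the allele studied concerns a forkhead factor. RefSeq starts on GRCm38.p6, the assembly behind the mm10 build that the submitters' processing notes name, were matched by symbol for 5 of the 10 members (8 starts). Each run below is the 250 bases before a start, 5′ to 3′, in lower case with motif matches in capitals. The Hsd11b1 start and the second Cyp11a1 start lie inside the annotated genes, as alternative starts. The first Cyp11a1 window ends at 57998023, well before the GENCODE gene start at 58006411. Neither Cyp11a1 window therefore adjoins that gene start, and the sequence before it was not searched.
Hsd11b1, chr1:193242361-193242610, minus strand: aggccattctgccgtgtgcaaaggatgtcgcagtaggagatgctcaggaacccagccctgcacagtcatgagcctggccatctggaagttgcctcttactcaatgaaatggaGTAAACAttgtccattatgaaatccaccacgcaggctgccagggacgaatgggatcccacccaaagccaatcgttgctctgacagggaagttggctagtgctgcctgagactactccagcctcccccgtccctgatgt
Hsd3b1, chr3:98859795-98860044, minus strand: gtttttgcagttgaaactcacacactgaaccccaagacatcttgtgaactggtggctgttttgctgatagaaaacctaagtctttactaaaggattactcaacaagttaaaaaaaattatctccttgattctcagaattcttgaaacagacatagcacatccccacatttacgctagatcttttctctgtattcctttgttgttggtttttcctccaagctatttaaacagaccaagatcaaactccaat
Cyp11a1, chr9:57997774-57998023, plus strand: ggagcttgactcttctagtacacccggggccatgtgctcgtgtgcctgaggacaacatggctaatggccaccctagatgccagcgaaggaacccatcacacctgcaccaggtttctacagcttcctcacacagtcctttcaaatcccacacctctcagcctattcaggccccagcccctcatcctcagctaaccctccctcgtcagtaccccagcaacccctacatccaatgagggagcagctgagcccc
Cyp11a1, chr9:58014702-58014951, plus strand: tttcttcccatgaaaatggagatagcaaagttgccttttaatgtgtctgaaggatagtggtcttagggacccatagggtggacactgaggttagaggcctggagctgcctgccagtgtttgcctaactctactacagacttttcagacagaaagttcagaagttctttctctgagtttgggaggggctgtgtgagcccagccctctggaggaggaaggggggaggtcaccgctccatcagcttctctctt

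The windows were searched on both strands for the NR5A motif CAAGGNCA, bound by the factors that drive steroidogenic genes, the FOXL2 element GTCAAGG, the forkhead core GTAAACA, the estrogen response element GGTCANNNTGACC and the glucocorticoid and progesterone response element GNACANNNTGTNC. The NR5A motif and the FOXL2 element can share bases. Over the 8 windows the search gave 1 match, a forkhead core from 138 to 132 bases before the Hsd11b1 start. In the same window of all 32851 RefSeq starts, the forkhead core occurred in 3.17%, the NR5A motif in 5.53%, the FOXL2 element in 2.75%, the estrogen element in 0.0639% and the glucocorticoid and progesterone element in 0.387%. A match describes letters only, and the absence of one says nothing about binding elsewhere.

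The first step of synthesis is cholesterol entry into mitochondria, the step of Star (chromosome 8, 25806555 to 25815982, plus strand, GRCm38). Star was at 2.76, 2.41 and 2.94 FPKM in controls 1, 2 and 4. In Foxl2LsL libraries 1 to 4 the values were 5.56, 5.11, 5.41 and 7.44 FPKM. All 4 Foxl2LsL libraries lay above all 3 controls, and the highest was Foxl2LsL 4. Mean levels were 2.70 ± 0.272 in controls (SD, n = 3) and 5.88 ± 1.06 FPKM in Foxl2LsL libraries (SD, n = 4). On the log2(FPKM + 1) scale the change was 0.88 (SE 0.13, 95% interval 0.59 to 1.18; Benjamini-Hochberg adjusted limma p 0.00180). An exact two-sided permutation gave p = 0.0571, the smallest that 3 against 4 libraries allow. Star had 655 to 1582 fragments per library. Star kept its call in all 19 settings in which it was tested, with Benjamini-Hochberg adjusted limma p from 0.000314 to 0.0258.

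Markers of other cells moved in both directions between the groups. Summed FPKM of 4 theca and luteal markers was 2.75 to 4.23 in controls and 4.21 to 6.30 in Foxl2LsL libraries. Of their 2 tested genes, Insl3, a hormone of theca and luteal cells, was higher past the threshold and Ptgfr, the prostaglandin F receptor, overlapped between the groups. Lhcgr, the luteinizing hormone receptor, was below the filter and overlapped too, with 1, 1 and 4 fragments in controls and 23, 2, 9 and 2 in Foxl2LsL libraries. Akr1c18, the other gene of the list, was below the filter and lower in every Foxl2LsL library (0.014 to 0.07 FPKM) than in any control (0.184 to 0.484 FPKM). Summed FPKM of 6 leukocyte markers was 25.7 to 36.5 and 38.3 to 61.1. Of their 5 tested genes 1, Csf1r, was higher past the threshold, where 16.7% of all tested genes were. Of the tested genes that did not pass, Ptprc had a log2 fold change of -0.16 and the rest had positive ones. The part of these cells in the result was not tested. The tested genes whose centred log2(FPKM + 1) values lay closest to Star over the 7 libraries were Cldn11 and Rab3d, with root mean square differences of 0.0777 and 0.102.

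**Figure D2:**
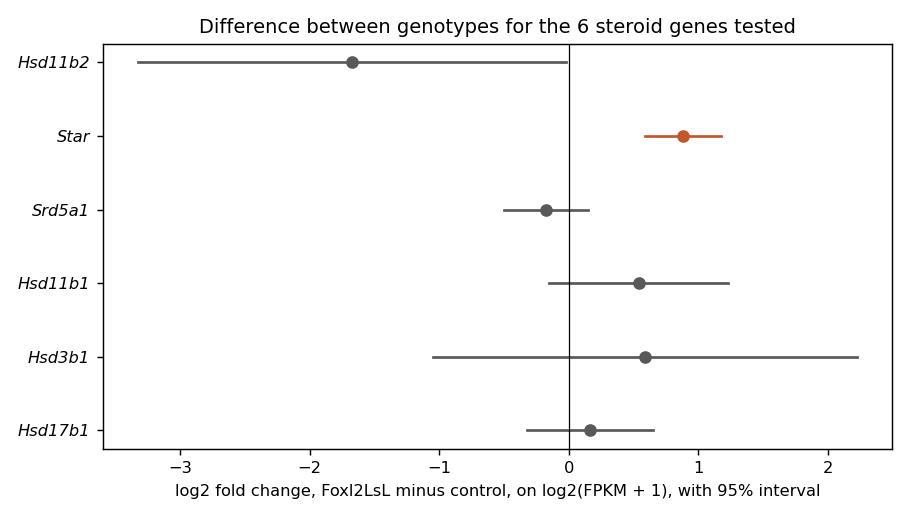
Log2 fold change of the 6 tested genes (x axis, Foxl2LsL minus control on log2(FPKM + 1); bars are 95% intervals from limma, orange past an adjusted p of 0.05). Star is the gene past the threshold, and the intervals of Hsd3b1 and Hsd11b2 are the widest.

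The next 3 enzymes of the pathway varied widely between libraries of both genotypes, and none passed a test between them. Cyp11a1 (chromosome 9, 58006411 to 58027023, plus strand), the side-chain cleavage enzyme, was at 0.065, 0.939 and 0.175 FPKM in controls 1, 2 and 4 and at 1.13, 0.107, 0.395 and 0.237 FPKM in Foxl2LsL libraries 1 to 4. Its highest libraries were Foxl2LsL 1 and control 2, 1 from each group, and the groups overlapped. These values rest on 13, 198 and 36 fragments in controls and on 233, 16, 75 and 39 in Foxl2LsL libraries. The means were 0.393 ± 0.476 (SD, n = 3) and 0.468 ± 0.459 FPKM (SD, n = 4), with an exact two-sided permutation p of 0.686. Its exons overlap those of Gm17322 on the same strand, so some fragments could belong to that gene. The sign of this difference changed when control 1, control 4 or Foxl2LsL 1 was left out.

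Hsd3b1 (chromosome 3, 98852194 to 98859794, minus strand), which makes progesterone in gonads and adrenal, had the same order of its 5 highest libraries as Cyp11a1. It was at 0, 2.64 and 0.09 FPKM in controls 1, 2 and 4, and at 6.24, 0, 1.43 and 0.811 FPKM in Foxl2LsL libraries 1 to 4. Control 1 and Foxl2LsL 2 had 0 fragments, and Foxl2LsL 1 had 759. With a floor of 3 fragments, these 0 values are compatible with up to 3 fragments per library, for counting error only. The log2 fold change was 0.59 (SE 0.71, 95% interval -1.05 to 2.22; Benjamini-Hochberg adjusted limma p 0.537), smaller than its SE. Without Foxl2LsL 1 it was 0.05, and with array weights it was -0.21. The nearest tested genes by pattern were Akr1cl (root mean square difference 0.420) and Gbp2b (0.482), which were farther off than the nearest genes of Star. Hsd3b2 to Hsd3b6, 5 paralogs, had at most 8 fragments in any library, and how fragments shared within the family were counted is not given in the sources used here.

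Cyp17a1 (chromosome 19, 46667165 to 46673172, minus strand), the enzyme that leads to androgens, was at 0.009, 0.258 and 0.108 FPKM in controls and at 0.696, 0, 0.458 and 0.072 FPKM in Foxl2LsL libraries. Foxl2LsL 1 was again the highest library, and Foxl2LsL 2 and control 1 were again the lowest, with 0 and 1 fragments. The groups overlapped, with a two-sided exact permutation p of 0.514. Cyp19a1 (chromosome 9, 54165937 to 54268110, minus strand), the aromatase, had 0 to 3 fragments in controls and 2 to 5 in Foxl2LsL libraries. It lay near the floor of 3 fragments in all 7 libraries, so no fold change is given, and a difference was not detectable at this depth.

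Some genes of ovarian steroid-making cells were also highest in Foxl2LsL 1, and others were not. Gata4 and Nr5a1, transcription factors of granulosa and theca cells, were lowest in control 1 and highest in Foxl2LsL 1, where Gata4 (0.202 FPKM) was level with control 2 (0.201 FPKM). Nr5a1 was at 0.015, 0.206 and 0.072 FPKM in controls and 0.37, 0.066, 0.307 and 0.281 FPKM in Foxl2LsL libraries. Fshr, the granulosa receptor for follicle-stimulating hormone, had 17 fragments in Foxl2LsL 1, 7 in control 2, 3 in Foxl2LsL 3, 0 in control 4 and Foxl2LsL 2, and 1 in each other library. Inha, which encodes the inhibin alpha chain, was at 9.22 FPKM in Foxl2LsL 1 and 6.48 in control 2, against 4.58 to 5.34 in the other 5 libraries. The other 2 granulosa markers had another order. Amh, the anti-Müllerian hormone, was highest in control 1, at 0.606, 0.536 and 0.366 FPKM in controls and 0.385, 0.163, 0.278 and 0.24 FPKM in Foxl2LsL libraries. Nr5a2, a relative of Nr5a1, was higher in every control (1.04 to 1.17 FPKM) than in any Foxl2LsL library (0.391 to 0.764 FPKM), with a Benjamini-Hochberg adjusted limma p of 0.00979 in the fit without the filter. Zp3, an egg coat gene, had 10 fragments in Foxl2LsL 3 and 6 in both Foxl2LsL 1 and control 2. It had 0 or 1 in the rest. No oocyte marker was highest in Foxl2LsL 1. Gdf9 was highest in Foxl2LsL 4, Zp2 and Oosp1 in Foxl2LsL 3, and Zp1, Bmp15 and Nlrp5 in control 2.

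Summed over their lists, granulosa and oocyte markers overlapped between the groups. Of the 5 granulosa markers, 1 was tested and 0 were called. Their summed FPKM was 6.49 to 8.44 in controls and 5.20 to 10.8 in Foxl2LsL libraries. The 7 oocyte markers summed to 0.513 to 0.994 and 0.573 to 0.986 FPKM, and Zp2 was at 0 in all 3 controls and had 1 to 7 fragments in Foxl2LsL libraries. Ovgp1, a secreted oviduct protein, was at 291 FPKM in control 2 and at 1.65 to 19.7 FPKM in the other 6 libraries. Of the adrenal enzymes, Cyp11b1 and Cyp11b2 had at most 6 fragments in any library. The part of ovary or oviduct tissue in the values of Cyp11a1, Hsd3b1 and Cyp17a1 was not tested. Leaving out control 2 and Foxl2LsL 1 together, a setting chosen after seeing the data, left Star as the called member (log2 fold change 0.84; Benjamini-Hochberg adjusted limma p 0.0258).

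**Figure D3:**
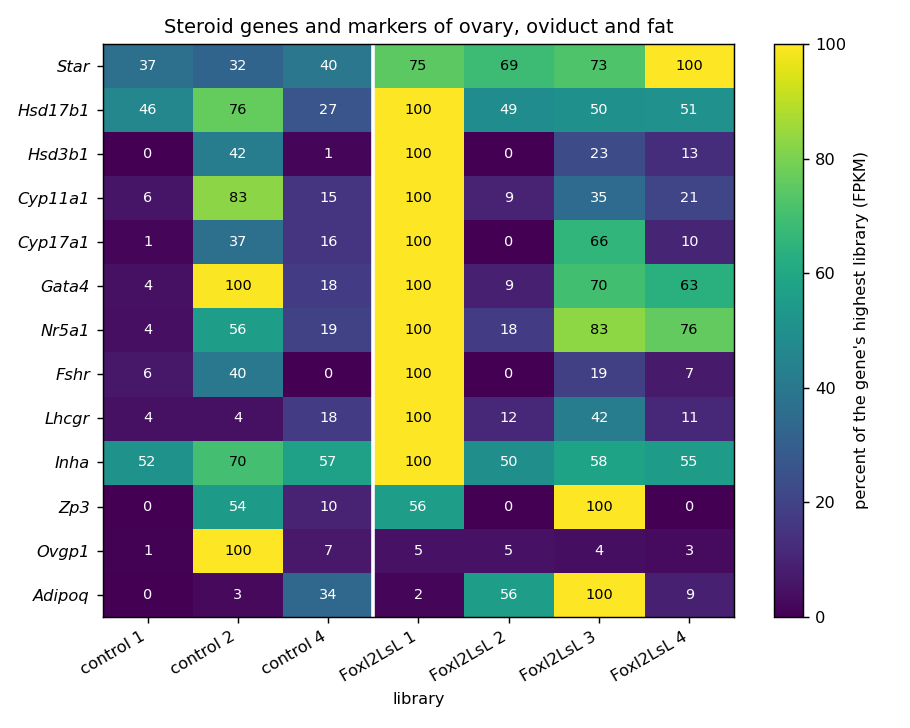
Level of steroid genes and of markers of ovary, oviduct and fat in each library, as a percent of that gene's highest library (colour and printed number; rows are genes, columns are the 7 libraries, with a white line between the groups). Cyp11a1, Hsd3b1, Cyp17a1, Nr5a1, Fshr, Lhcgr and Inha are all highest in Foxl2LsL 1, whereas Star is high in all 4 Foxl2LsL libraries. The other granulosa, theca and luteal markers are not shown and were highest elsewhere. Amh was highest in control 1, Nr5a2 and Akr1c18 in control 2, and Insl3 and Ptgfr in Foxl2LsL 3. Of the oocyte markers not shown, Zp1, Bmp15 and Nlrp5 were highest in control 2, Zp2 and Oosp1 in Foxl2LsL 3, and Gdf9 in Foxl2LsL 4.

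The estrogen-converting pair was low. Hsd17b1 (chromosome 11, 101078411 to 101080527, plus strand), which makes estradiol from estrone, was at 0.836, 1.38 and 0.478 FPKM in controls 1, 2 and 4 and at 1.80, 0.875, 0.901 and 0.91 FPKM in Foxl2LsL libraries 1 to 4. Foxl2LsL 1 and control 2 were again its highest libraries, and the groups overlapped. The change on the log2 scale was 0.17 (SE 0.21, 95% interval -0.32 to 0.65; Benjamini-Hochberg adjusted limma p 0.556). Without Foxl2LsL 1 it was 0.03, and with array weights it was -0.10. Gpr137b and Nhlrc1 lay closest to it by pattern, with root mean square differences of 0.0994 and 0.105.

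Hsd17b2 (chromosome 8, 117701904 to 117759027, plus strand), which oxidizes estradiol to estrone, was at 0.111, 0.151 and 0.012 FPKM in controls and at 1.16, 0.065, 0.542 and 0.818 FPKM in Foxl2LsL libraries. Foxl2LsL 1, 3 and 4 lay above all controls, while Foxl2LsL 2 lay below controls 1 and 2. These values rest on 9, 13 and 1 fragments in controls and 97, 4, 42 and 55 in Foxl2LsL libraries. The means were 0.0913 ± 0.0716 (SD, n = 3) and 0.645 ± 0.462 FPKM (SD, n = 4), with an exact two-sided permutation p of 0.171. In a fit without the filter on low values its change was 0.55 on the log2 scale (SE 0.22; Benjamini-Hochberg adjusted limma p 0.117). No ratio of Hsd17b2 to Hsd17b1 was formed, because control 4 had 1 fragment on Hsd17b2.

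The glucocorticoid pair held the most abundant member. Hsd11b2 (chromosome 8, 105518755 to 105523988, plus strand), the enzyme that inactivates corticosterone and shields the mineralocorticoid receptor, was at 34.2, 132 and 206 FPKM in controls 1, 2 and 4. In Foxl2LsL libraries 1 to 4 the levels were 58.2, 12.3, 21.7 and 51.0 FPKM. Controls 2 and 4 lay above every Foxl2LsL library, but control 1 lay below Foxl2LsL 1 and 4. The means were 124 ± 86.2 (SD, n = 3) and 35.8 ± 22.2 FPKM (SD, n = 4). On the log2 scale the change was -1.67 (SE 0.71, 95% interval -3.32 to -0.02; Benjamini-Hochberg adjusted limma p 0.0959), so Hsd11b2 did not pass the threshold. Without control 1 it was -2.42 and passed (adjusted p 0.0210, limma with Benjamini-Hochberg adjustment), and without control 4 it was -1.14 (adjusted p 0.243). Ripor2 and Spon1 lay closest by pattern, at root mean square differences of 0.585 and 0.625.

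Markers of uterine gland and endothelium fell between the same groups. Over all tested genes 23.9% were lower and 16.7% higher past the threshold, and no marker list was tested against them. Summed FPKM of 3 uterine gland markers was 26.4 to 41.8 in controls and 4.49 to 6.87 in Foxl2LsL libraries, and both of its 2 tested genes were lower. The 5 endothelial markers summed to 105 to 143 and 69.6 to 77.5 FPKM, and 5 of 5 were lower. Hoxa10, a homeobox gene of uterine stroma chosen here after its values were seen, was at 42.0, 69.0 and 123 FPKM in controls. Over the 3 controls this was the order of Hsd11b2. In Foxl2LsL libraries 1 to 4 Hoxa10 was at 22.6, 24.0, 27.2 and 27.8 FPKM. That order was unlike that of Hsd11b2, which was highest in Foxl2LsL 1, where Hoxa10 was lowest. Of the 6 stromal markers 3 were lower and 1, Dcn, was higher past the threshold. The part of these cells in the values of Hsd11b2 was not tested.

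Hsd11b1 (chromosome 1, 193221634 to 193264075, minus strand), which regenerates active glucocorticoid inside cells, was at 2.89, 2.23 and 1.03 FPKM in controls and at 3.61, 1.80, 3.34 and 5.03 FPKM in Foxl2LsL libraries. Foxl2LsL 1, 3 and 4 lay above all controls and Foxl2LsL 2 lay below 2 of them. The change was 0.54 on the log2 scale (SE 0.30, 95% interval -0.15 to 1.23; Benjamini-Hochberg adjusted limma p 0.181). With array weights it was 0.64 and passed the threshold (Benjamini-Hochberg adjusted limma p 0.0427). B3gnt3 and Serpinb5 lay closest by pattern, at root mean square differences of 0.129 and 0.130. Fat tissue is known for Hsd11b1, and summed FPKM of 7 adipose markers was 0.235, 7.84 and 73.9 in controls and 2.42, 103, 204 and 15.6 in Foxl2LsL libraries. Hsd11b1 was lowest in control 4 and in Foxl2LsL 2, which were among the 3 libraries with the most adipose signal, and highest in Foxl2LsL 4. Foxl2LsL 3, with the most adipose signal, had 3.34 FPKM of Hsd11b1, and the part of fat in these values was not tested.

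The balance of the pair was read as Hsd11b1 in percent of Hsd11b2 in each library. It was 8.47%, 1.69% and 0.502% in controls 1, 2 and 4 and 6.21%, 14.6%, 15.4% and 9.87% in Foxl2LsL libraries 1 to 4. Foxl2LsL 2, 3 and 4 lay above all controls, and Foxl2LsL 1 lay below control 1. The mean log2 ratio was -5.70 ± 2.05 (SD, n = 3) and -3.21 ± 0.61 (SD, n = 4), a difference of 2.49 with a two-sided exact permutation p of 0.114. The difference was 1.52 without control 4 and 3.56 without control 1.

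**Figure D4:**
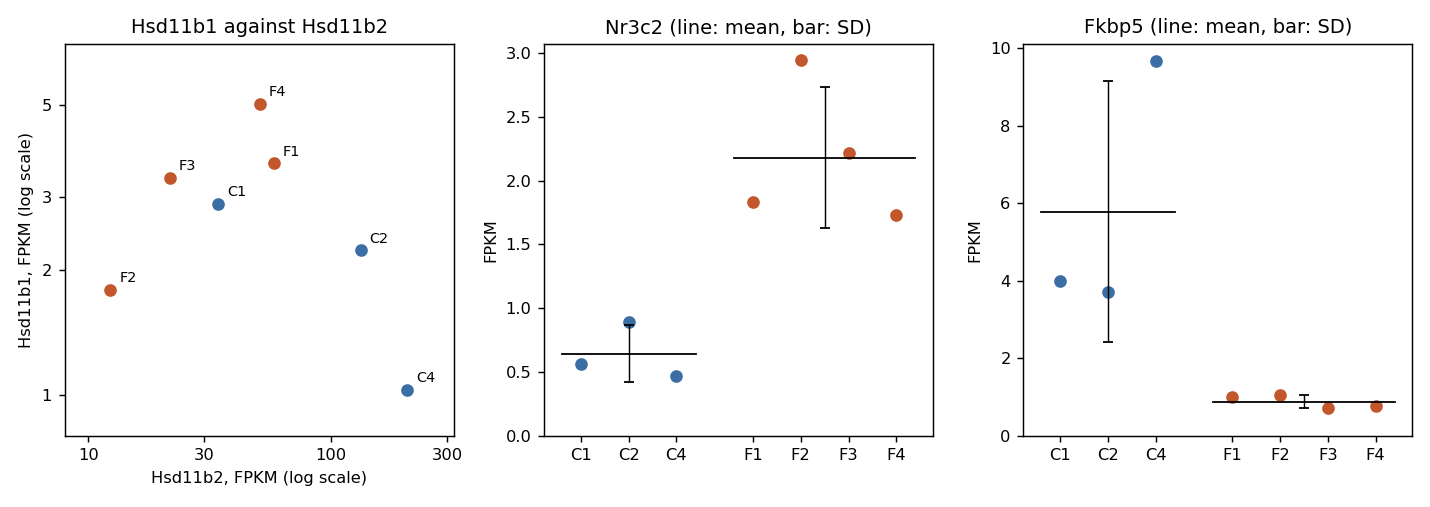
Left: Hsd11b1 against Hsd11b2 in FPKM (both axes log scale) in the 7 libraries, where controls C2 and C4 lie at high Hsd11b2 and control C1 lies among the Foxl2LsL libraries F1 to F4. Middle and right: FPKM of Nr3c2 and Fkbp5 by library (line: group mean, bar: SD), with groups that do not overlap, as the rule for naming list genes required.

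Srd5a1 (chromosome 13, 69573449 to 69611442, minus strand; its exons overlap Gm17108 on the same strand), the 5α-reductase that inactivates progesterone in the pregnant uterus and cervix, had low spread. Its level was 5.08, 4.35 and 3.12 FPKM in controls and 3.80, 3.35, 3.85 and 3.19 FPKM in Foxl2LsL libraries. Control 4 lay below all 4 Foxl2LsL libraries and controls 1 and 2 lay above them. The means were 4.18 ± 0.988 (SD, n = 3) and 3.55 ± 0.327 FPKM (SD, n = 4), with a log2 fold change of -0.17 (SE 0.14, 95% interval -0.50 to 0.15; Benjamini-Hochberg adjusted limma p 0.350). Without control 4 it was -0.33 and passed the threshold (adjusted p 0.0420, limma with Benjamini-Hochberg adjustment). Itm2c and Shmt1 lay closest by pattern, at root mean square differences of 0.0589 and 0.0598.

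Outside the 10 members, the aldo-keto reductases Akr1c13 and Akr1c14 and Hsd17b11 rose. In a list of 26 genes of local steroid metabolism, 24 were in the table and 13 were tested, of which 6 were higher and 1, Srd5a3, was lower past the threshold (limma, Benjamini-Hochberg), and 6 did not pass. Over all tested genes the shares were 16.7% higher and 23.9% lower, and no test set the list against other genes. The list's median log2 fold change was 0.30, against -0.05 over all genes. Akr1c13, an aldo-keto reductase, rose from 12.4 ± 4.51 (SD, n = 3) to 46.1 ± 8.73 FPKM (SD, n = 4), which is a log2 change of 1.87 (adjusted p 0.00142). Hsd17b11, which despite its name is best known as a lipid droplet protein, rose from 35.6 ± 4.70 to 113 ± 14.5 FPKM (log2 fold change 1.64, adjusted p 0.000209). Akr1c14, a 3α-hydroxysteroid dehydrogenase that reduces 5α-reduced steroids further, rose from 21.1 ± 8.51 to 50.4 ± 3.07 FPKM (log2 fold change 1.28, adjusted p 0.00323). In each of these 3 genes every Foxl2LsL library lay above every control, but groups that do not overlap were a condition for naming them. Genes of the Akr1c cluster are paralogs, so fragments may be split between those most alike.

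In cholesterol supply and electron transfer, Tspo and Por rose. Of 14 listed genes, all tested, 3 were higher and 1, the lipoprotein receptor Scarb1, was lower past the threshold (median log2 fold change 0.17). The share called was below the 40.6% of all tested genes, and the share higher was near their 16.7%. Tspo, a cholesterol-binding protein of the outer mitochondrial membrane, rose from 51.6 ± 7.72 (SD, n = 3) to 99.3 ± 13.0 FPKM (SD, n = 4), which is a log2 change of 0.93 (Benjamini-Hochberg adjusted limma p 0.00202). Por, the electron donor of microsomal cytochromes, rose from 43.0 ± 7.55 to 68.0 ± 4.10 FPKM (0.66, adjusted p 0.00381). H6pd, which supplies HSD11B1 with its cofactor, rose from 14.1 ± 2.09 to 18.3 ± 1.48 FPKM (0.36, adjusted p 0.0324), a call lost when control 1, control 2 or Foxl2LsL 1, 3 or 4 was left out, with adjusted p from 0.0592 to 0.0852 (limma, Benjamini-Hochberg). The count of higher genes was 5 without control 4 or without Foxl2LsL 2. The count of lower genes was 3 without control 4 and 0 without control 1 or Foxl2LsL 4.

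Among 14 other synthesis enzymes, 12 were in the table and 4 were tested. Of these 1 was higher past the threshold, where 16.7% of all tested genes were. The 1 call was Hsd3b7, an enzyme of bile acid synthesis rather than of hormones, which rose from 27.8 ± 1.22 (SD, n = 3) to 36.7 ± 2.35 FPKM (SD, n = 4; log2 change 0.39; Benjamini-Hochberg adjusted limma p 0.00502). Of 10 genes that control steroidogenic cells 2 were tested, and 0 passed the adjusted threshold, where 40.6% of all tested genes did.

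Among receptors for steroids, Paqr5 and Nr3c2 rose. Of 12 listed genes 11 were tested, with 6 higher and 0 lower past the threshold and a median log2 fold change of 0.31. Over all tested genes 16.7% were higher and 23.9% lower, and the list was not tested against them. The count of higher receptors was 4 to 6 when each library was left out in turn, lowest without Foxl2LsL 3. Paqr5, a membrane progestin receptor, rose from 1.23 ± 0.164 (SD, n = 3) to 5.40 ± 1.49 FPKM (SD, n = 4), which is a log2 change of 1.49 (Benjamini-Hochberg adjusted limma p 0.00119). Nr3c2, the mineralocorticoid receptor that HSD11B2 shields from glucocorticoids, rose from 0.643 ± 0.223 to 2.18 ± 0.551 FPKM (0.95, adjusted p 0.00339). Without control 4, 1 receptor was lower past the threshold.

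The 10 glucocorticoid-responsive genes were all tested, and 1 was lower and 0 were higher (median log2 fold change -0.10), fewer than the 40.6% called over all tested genes. Fkbp5, a co-chaperone of steroid receptors that glucocorticoids and progestins induce, fell from 5.79 ± 3.36 (SD, n = 3) to 0.880 ± 0.165 FPKM (SD, n = 4), which is a log2 change of -1.75 (Benjamini-Hochberg adjusted limma p 0.00245). Its values were 3.98, 3.72 and 9.67 FPKM in controls and 0.994, 1.05, 0.715 and 0.764 FPKM in Foxl2LsL libraries. Control 4, the library with the most Hsd11b2, had the highest Fkbp5, Sgk1 (53.7 FPKM) and Zbtb16 (5.88 FPKM) of the 7 libraries. It was also the highest for Per1, Klf9, Dusp1, Mt1, Mt2 and Errfi1. Tsc22d3, the other gene of the list, was highest in Foxl2LsL 2. The list genes other than Fkbp5 are given for their libraries after the values were seen, and none of them passed the threshold between groups. Control 4 was not the highest for this list alone. Markers of other cells, such as Hoxa10, Cdh5 and Foxa2, were also highest there, while others, such as Epcam and Dcn, were lowest there. Without control 4, 2 genes of the list were higher, and without control 1, 2 were lower.

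**Figure D5:**
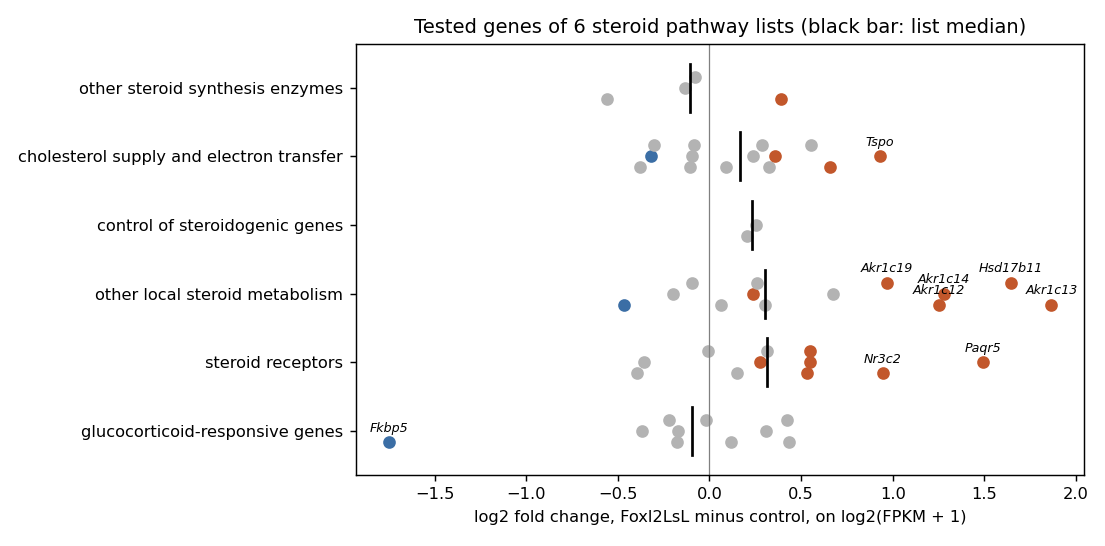
Log2 fold change (x axis, Foxl2LsL minus control on log2(FPKM + 1)) of each tested gene in 6 lists of steroid pathway genes (rows); orange points were higher and blue points lower past an adjusted p of 0.05, grey points did not pass, and black bars are list medians. Local metabolism and receptors have 6 orange points each, and Fkbp5 lies farthest to the left.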

How the data were processed

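RNA was extracted with TRIzol and sequenced from Illumina libraries, per the labels' protocols. The authors deposited 1 table of FPKM values with a gene length for each of 24964 symbols and 1 column per library. The submitters' processing notes name STAR 2.5.2b, featureCounts 1.5.0-p1 of Subread, DESeq2 1.12.4 and mm10, with no role or order. The annotation, strand use and filters are not given in the sources used here.

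Fragments were recovered by dividing FPKM times length by the step that low values share (genes up to 1500 bases, up to 20 multiples). In each library 100% of 1653 to 1832 low values lay within 0.1 of a whole number. Genes with a mean of at least 1 FPKM (13334, leaving 11630 below) were compared as log2(FPKM + 1) with limma 3.58.1 in R 4.3.3 (intensity trend) and Benjamini-Hochberg adjustment at 0.05. Fold changes on that scale understate those of low genes. Members below the filter and the ratio were compared with two-sided exact permutation tests over 35 arrangements. The fit was tested on simulated data. Figures used Python 3.11.15 and matplotlib 3.10.9. Positions came from GENCODE M21.

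The members and lists were chosen with earlier results of these data known. All members were named, with Foxl2. In each list, up to 3 called genes with groups that do not overlap and the largest change were named, and for each tested member the 2 genes nearest in pattern. A list gene that this rule also takes is not reported here. Other names were chosen after their values were seen. The groups share replicate numbers 1, 2 and 4, and nothing in the labels ties a number to an animal or a day, so the fit has no block. Intervals and floors cover counting error or library spread only, as stated. No 2 libraries were identical.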

Additional observations from a re-analysis of the deposited data

Results flagged for a closer look

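A library far from the other 3 of its group was looked for in the 4 Foxl2LsL libraries, in 22 genes (the 10 members, Foxl2 and the 11 named genes of the lists), and 2 were found, where chance gives about 1 in 20. Hsd17b1 was at 1.801 FPKM in Foxl2LsL 1 against 0.875 to 0.91 FPKM in the other 3 libraries of the group, and this was also the library with the highest Cyp11a1, Hsd3b1 and Cyp17a1. Tspo was at 79.863 FPKM in Foxl2LsL 2, against 104.9 to 106.5 FPKM in the other 3 libraries, and still above the 44.0 to 59.5 FPKM of the controls. The cause was not tested for either.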

How the results depend on the processing

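The comparison was refitted in 20 other settings, 19 of them planned and 1 (without control 2 and Foxl2LsL 1 together) chosen after seeing the data, as were the refits of list genes and the leave-one-out values of members below the filter. Star kept its direction and call in every setting that tested it. The number of members past the threshold was 1, and it was 3 with array weights, 0 of 1 member tested with a mean of at least 5 FPKM, and 1 to 2 when each library was left out in turn. Array weights gave log2 fold changes of -0.21 for Hsd3b1 and -0.10 for Hsd17b1, against the reported direction, of 0.64 for Hsd11b1 and -1.55 for Hsd11b2, both past the threshold, and of -0.15 for Foxl2. Across the fits that each left out 1 library, Hsd11b2 ranged from -2.42 to -1.14, Srd5a1 from -0.33 to -0.049, Foxl2 from -0.10 to 0.28 and the difference of Cyp11a1 from -0.12 to 0.35. For all of these, the cause was not tested. The count of genes past the threshold was 5409, and it was 3243 with a replicate block on libraries 1, 2 and 4 (3196 of them among the 5409), where the same libraries without it gave 3975, and 2895 without control 2 and Foxl2LsL 1 together. Deviations of same-numbered libraries correlated at 0.23, -0.03 and -0.11, so the numbers were not taken as pairs. The replicate block changed no member's call, and it ended that of H6pd (adjusted p 0.0515), which libraries 1, 2 and 4 without it ended too (adjusted p 0.0660; limma, Benjamini-Hochberg). Of the 11 named list genes, 0 changed direction in any setting, but they had been picked for groups that do not overlap. Leaving out 1 library could therefore not reverse them. Passing the threshold in every setting held for 6 of the 11, counting a setting that did not test a gene as not passed. Depth limits Cyp19a1, Hsd17b2 and Cyp17a1 most, with at most 5, 97 and 84 fragments in any library.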

Other observations

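Several steroid enzymes outside the members were low but had groups that did not overlap, and they are named after their values were seen. Groups that did not overlap were common, at 47.6% of all genes that passed the filter on low values. Hsd17b3 and Cyp11b1, on at most 9 and 6 fragments in any library, had such groups too and are not described further. Srd5a2, the type 2 5α-reductase, was at 0.573, 0.331 and 0.5 FPKM in controls 1, 2 and 4 and at 0.143, 0.074, 0.174 and 0.178 FPKM in Foxl2LsL libraries 1 to 4, on 3 to 31 fragments per library. Akr1c18, which inactivates progesterone and is one of the theca and luteal markers above, was at 0.184, 0.484 and 0.254 FPKM in controls and 0.064, 0.07, 0.014 and 0.032 FPKM in Foxl2LsL libraries, on 1 to 39 fragments. This order is unlike that of Cyp11a1 and Hsd3b1, which were highest in Foxl2LsL 1. Cyp1a1, which hydroxylates estradiol, was at 0.085, 0.048 and 0.109 FPKM in controls and 1.08, 0.473, 0.854 and 0.942 FPKM in Foxl2LsL libraries, on 9 to 198 fragments. Hsd17b13, a lipid droplet protein, was at 0.028 to 0.1 FPKM in controls and 0.179 to 0.502 FPKM in Foxl2LsL libraries, on 4 to 70 fragments. Each had a two-sided exact permutation p of 0.0571, the smallest this design allows, with no adjustment for having been picked. In the fit without the filter on low values, Benjamini-Hochberg adjusted limma p was 0.00739 for Srd5a2, 0.0200 for Akr1c18, 0.00473 for Cyp1a1 and 0.0386 for Hsd17b13.

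Cyp21a1, an adrenal enzyme of glucocorticoid synthesis, overlapped between the groups, at 3.55, 2.47 and 0.547 FPKM in controls and 2.18, 0.054, 0.378 and 2.26 FPKM in Foxl2LsL libraries. Its lowest libraries, control 4 and Foxl2LsL 2 and 3, were those with the highest summed adipose markers (73.9, 103 and 204 FPKM). The same 3 libraries alone had fragments on Mc2r, the corticotropin receptor that mouse fat cells also carry (6, 8 and 23 fragments, and 0 in the other 4). Cyp11b1 and Cyp11b2, the enzymes that mark adrenal cortex, had at most 6 fragments in any library. The part of adherent fat in these values was not tested.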
